A study of Mus musculus with 9 samples.

Results

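The genes described here encode the proteins of the small ribosomal subunit, whose mouse symbols begin with Rps. Members were all symbols of Rps followed by a digit, together with Rpsa, that carried no hyphen, were not kinases of the Rps6k family and summed to at least 1000 unique molecular identifiers (UMIs, 1 per captured RNA molecule) over the 9 kidney matrices. Of 48 such symbols, 10 were Rps6k kinases and 2 carried a hyphen, which left 36 members among 32427 symbols. They were chosen by symbol and by their summed UMIs, the only measured value the rule used, and the 1000 UMI limit removed none. The least counted members were Rps23rg1 with 3651 UMIs, Rps4l with 20632 and Rps27rt with 35283. Together the members held 25826431 of 775108937 UMIs, or 3.33%.

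The label holds for 32 of the 36 symbols. Rps19bp1 is a binding partner of Rps19 and not a ribosomal protein, Rps23rg1 is a retrogene derived from Rps23, Rps27rt is a retrocopy of Rps27, and RefSeq lists Rps4l as a transcribed pseudogene. Rps27a encodes a ribosomal protein fused to ubiquitin, and Rps27l is a paralog of Rps27. These symbols were retained because the rule contains them, and medians are also given without the 4 that are not established subunit proteins.

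Single-cell RNA sequencing was carried out on dissociated kidneys of 9 male C57BL/6 mice, 6 weeks old at the start, with 3 mice in each group. AKI-CKD mice received cisplatin, a platinum drug that injures the proximal tubule, at 8 mg/kg weekly by intraperitoneal injection for 4 weeks. AKI-CKD + EGT mice received the same cisplatin and ergothioneine (EGT), a sulfur-containing antioxidant from the diet, at 0.5 mg/mL in the drinking water from 3 days before cisplatin until the end. Control mice received saline, and kidneys were taken after 8 weeks. Repeated cisplatin is a toxic model of the passage from acute kidney injury to chronic kidney disease, and there was no group given ergothioneine alone.

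The small subunit binds mRNA, finds the start codon and decodes it, whereas the large subunit joins the amino acids. Each subunit needs its proteins in equal numbers, and their mRNAs share a pyrimidine-rich 5′ end, the TOP motif, that ties their translation to TOR signalling. Rps6 is the phosphorylation target of the S6 kinases, Rps28 and Rps27 sit near the mRNA path, Rps19 is needed for maturation of the subunit rRNA, Rpsa also serves as a laminin receptor, and Rps27l is a transcriptional target of p53. In the kidney, proximal tubule cells carry most of the reabsorptive and secretory work and are the cells that take up cisplatin.

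The start regions of 4 members are shown because the comparisons below turn on them and because Rps27 and Rps27rt are near copies. Each line gives 15 bases before the RefSeq start and 15 bases from it onward, 5′ to 3′ on the gene's strand in build GRCm38.p6, and capitals mark CTTTCC, a run of the TOP type, where it occurs.
Rps27: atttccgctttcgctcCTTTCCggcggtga
Rps27rt: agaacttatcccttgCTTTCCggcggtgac
Rps27l: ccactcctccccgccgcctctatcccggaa
Rps28: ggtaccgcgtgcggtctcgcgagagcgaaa

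These windows lie at chr3:90213634-90213663 on the minus strand for Rps27, chr9:114982725-114982754 on the minus strand for Rps27rt, chr9:66946071-66946100 on the plus strand for Rps27l and chr17:33824548-33824577 on the minus strand for Rps28. CTTTCC was found in the windows of Rps27 and Rps27rt and not in those of Rps27l and Rps28. Of the 350 words of 25 bases in the annotated Rps27rt transcript, 317 (90.6%) also occur in an Rps27 transcript and 0 occur in an Rps27l transcript. The annotated transcripts of Rps27 and Rps27l also share 0 such words. UMIs of Rps27rt and Rps27 are therefore uncertain between these copies. Searched on the sense strand from 20 bases before to 30 bases after the start, CTTCC or CTTTCC was found in 11 of the 27 members with a listed window (40.7%), in 19 of 39 large subunit genes (48.7%) and in 14.4% of all 27025 genes with a window. This match is a description of letters and not of a mapped start.

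The matrices held 70106161 to 101525691 UMIs each. Of 216680 barcodes, 196925 were kept, with a median of 2534 to 2966 UMIs per kept cell. Of the barcodes that passed the minimums of UMIs and genes, the 15% limit on mitochondrially encoded UMIs kept 92.1 to 99.1% in 7 libraries, 83.0% in Control mouse 1 and 72.3% in AKI-CKD + EGT mouse 3, so these libraries stood apart. Cells were grouped into clusters and named from markers, which gave 12 types, and proximal tubule-like (PT-like) cells made up 155673 of the kept cells. Loop of Henle-like (LOH-like) cells numbered 6998 and distal convoluted tubule-like (DCT-like) cells 13366, of which 1693 and 3161 came from AKI-CKD + EGT mouse 3. The DCT-like class held 2 clusters, of 7967 cells led by Slc12a3 and Trpm6 and of 5399 cells led by S100g and Calb1. All 9 DCT markers were raised in both, but Slc12a3, Trpm6 and Pvalb were not among the leading genes of the second. The DCT-like class may thus hold more than 1 tubule segment. PT transcripts were abundant in every other class. Across 19 PT markers, the median level in other classes ranged from 35.6% (CD-PC-like, collecting duct principal cells) to 71.0% (podocyte-like) of the level in PT-like cells of the same mouse, and Slc34a1, the phosphate transporter of the proximal tubule, stood at 2308 CPM (UMIs scaled to a common library total) in T-like cells against 4274 CPM in PT-like cells. In contrast, the defining markers of the other classes were nearly absent from PT-like cells, where the T cell list summed to 0.139% of its level in T-like cells and the LOH list to 3.88%. Values in classes other than PT-like thus mix the class with PT transcripts. The share of the members after taking out these transcripts is given below for each class, and levels of single genes after taking them out only where stated.

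All 36 members had a higher fitted level in AKI-CKD than in Control mice, and none passed the test. In all kept cells, the share of UMIs from the members was 3.03%, 3.31% and 3.02% in Control mice 1 to 3, 3.69%, 4.10% and 3.84% among AKI-CKD mice, and 3.37%, 3.21% and 2.96% among AKI-CKD + EGT mice. Thus the AKI-CKD mice lay above all 6 other mice, and the Control and AKI-CKD + EGT mice overlapped. The group values were 3.12 ± 0.166% among Control, 3.88 ± 0.203% among AKI-CKD and 3.18 ± 0.206% in AKI-CKD + EGT (SD, n = 3).

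For AKI-CKD against Control in all kept cells, edgeR's quasi-likelihood test called 0 of the 36 members at an adjusted p of 0.05, and it called 4 of 20144 genes (0.0199%). The lowest adjusted p of a member was 0.542. At an unadjusted p of 0.05, 14 members (38.9%) passed beside 8.02% of all genes, and DESeq2 called 0 members beside 0.559% of genes. The median log2 fold change of the members was 0.37 and that of all genes 0.00. In 31 members all AKI-CKD mice lay above all Control mice, beside 8.71% of all genes, and in 0 members all lay below, beside 7.08%. In CPM without the TMM correction of library totals (total-scaled CPM) the count was also 31. The shares of all genes are for TMM-scaled CPM. None was computed for total-scaled CPM, here or below. The members with overlapping groups were Rps12, Rps19bp1, Rps23rg1, Rps27rt and Rps6.

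For AKI-CKD + EGT against AKI-CKD, all 36 members had lower fitted levels, and again none passed edgeR in all kept cells. edgeR called 0 members and 1 of 20144 genes (0.00496%), with a lowest adjusted p of 0.318. Unadjusted, 25 members (69.4%) passed p of 0.05 beside 12.7% of all genes. The median log2 fold change was -0.49 for the members and -0.01 for all genes, and in 27 members all AKI-CKD + EGT mice lay below all AKI-CKD mice, beside 9.73% of all genes (0 members and 8.53% of genes lay all above). In total-scaled CPM 22 members did so. The fold changes are for TMM-scaled libraries, and none was fitted on library totals alone, so their size without TMM is not given. DESeq2 called 11 members, all lower, beside 1.45% of genes. Without the 4 symbols that are not established subunit proteins, the medians were 0.38 and -0.50. Both comparisons contain the same AKI-CKD mice, so a high value in these mice moves both.

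**Figure D1:**
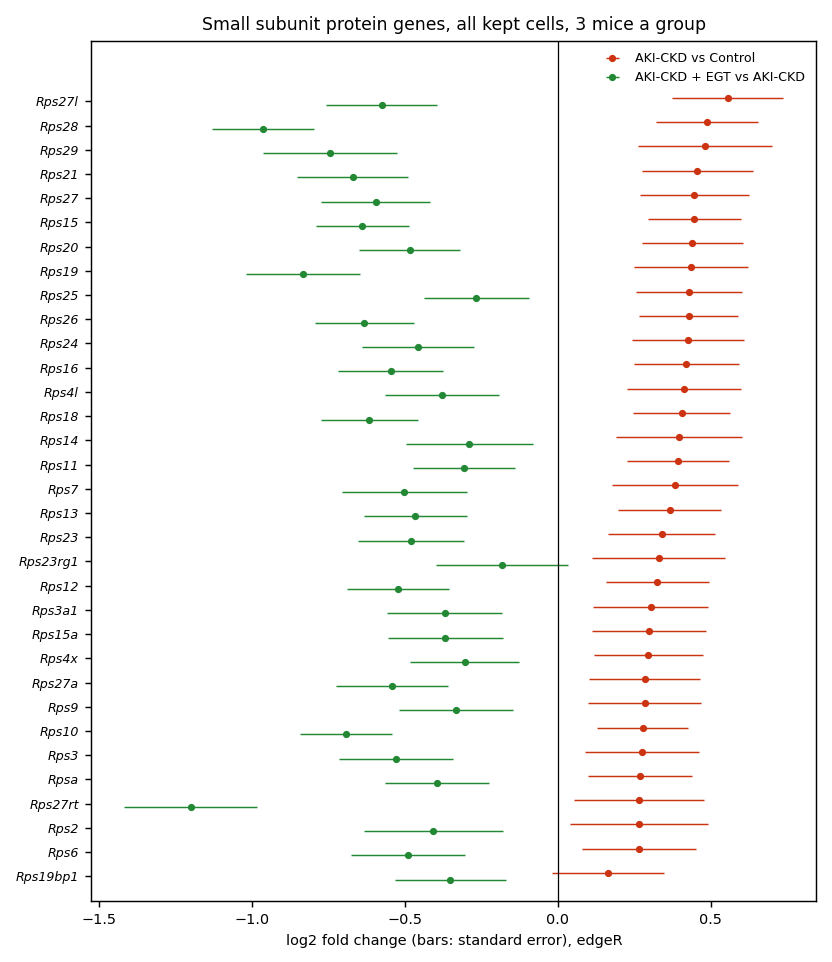
Fitted log2 fold change of 33 of the 36 genes in all kept cells (x axis), with standard error bars from edgeR over 3 mice a group, ordered by the AKI-CKD against Control value. All 33 AKI-CKD against Control points lie right of 0, and all 33 AKI-CKD + EGT against AKI-CKD points lie left of it, from -1.20 for Rps27rt to -0.18 for Rps23rg1.

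The share of mitochondrially encoded UMIs differed between the cisplatin groups in the opposite direction to the members. It was 6.08%, 3.98% and 1.55% in Control, 3.03%, 2.57% and 1.94% in AKI-CKD and 3.40%, 4.46% and 6.39% among AKI-CKD + EGT mice, so the last 2 groups did not overlap while Control overlapped both. When mitochondrially encoded and Malat1 counts were left out of the total, the members held 3.26%, 3.49% and 3.09% among Control, 3.84%, 4.22% and 3.93% among AKI-CKD and 3.51%, 3.38% and 3.21% among AKI-CKD + EGT mice, and the AKI-CKD mice still lay above all others. The part of the mitochondrial share in the member values was not tested.

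Among the members most changed between AKI-CKD and Control was Rps27l. In CPM scaled with TMM, as for all levels by group below, it stood at 605, 731 and 604 among Control, 884, 887 and 1080 among AKI-CKD and 739, 668 and 504 among AKI-CKD + EGT mice. All AKI-CKD mice lay above all others. Its log2 fold change of 0.56 ± 0.18 (SE) was the highest of the members and did not pass edgeR (adjusted p = 0.542). Against AKI-CKD, the AKI-CKD + EGT level was -0.58 ± 0.18 on the log2 scale (adjusted p = 0.318).

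Rps27, its paralog, stood at 943, 1220 and 972 CPM among Control, 1251, 1469 and 1553 CPM among AKI-CKD and 866, 1100 and 861 CPM among AKI-CKD + EGT mice. Its pattern was the same in order, with log2 fold changes of 0.45 ± 0.18 (adjusted p = 0.584) and -0.60 ± 0.18 (adjusted p = 0.318) in edgeR. The ratio of Rps27l to Rps27 UMIs was 0.620 ± 0.0209 among Control, 0.669 ± 0.0564 among AKI-CKD and 0.682 ± 0.149 among AKI-CKD + EGT mice (SD, n = 3), with overlapping groups. In PT-like cells this ratio was 0.666 ± 0.0149, 0.736 ± 0.0283 and 0.761 ± 0.159 in the same order, and there all AKI-CKD mice lay above all Control mice.

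Rps28, a small protein near the mRNA exit, was at 694, 986 and 795 CPM among Control, 1053, 1191 and 1224 CPM among AKI-CKD and 623, 546 and 607 CPM among AKI-CKD + EGT mice. With this scaling the AKI-CKD + EGT mice lay below all mice of both other groups. In total-scaled CPM they lay below all AKI-CKD mice but overlapped Control, with 733 in AKI-CKD + EGT mouse 3 and 727 in Control mouse 1. Its log2 fold change was 0.49 ± 0.17 for AKI-CKD against Control (adjusted p = 0.555, edgeR) and -0.96 ± 0.17 for AKI-CKD + EGT against AKI-CKD (edgeR, adjusted p = 0.318). Rps10 was the only other established subunit gene with all AKI-CKD + EGT mice below all Control mice, at 713, 773 and 808 CPM in Control and 546, 589 and 585 CPM in AKI-CKD + EGT mice. Rps10 was named after its values were seen.

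Rps27rt, the Rps27 retrocopy, stood at 52.1, 39.5 and 62.9 CPM among Control, 43.5, 68.9 and 73.5 CPM among AKI-CKD and 25.9, 29.6 and 25.3 CPM among AKI-CKD + EGT mice. Control and AKI-CKD overlapped, and the AKI-CKD + EGT mice lay below both. Its log2 fold change of -1.20 ± 0.22 for AKI-CKD + EGT against AKI-CKD was the lowest of the members (adjusted p = 0.318, edgeR). Its UMIs were 5.08 ± 1.66% of those of Rps27 among Control, 4.30 ± 0.714% among AKI-CKD and 2.87 ± 0.164% among AKI-CKD + EGT mice (SD, n = 3). How the counting assigned reads shared by these copies was not tested.

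**Figure D2:**
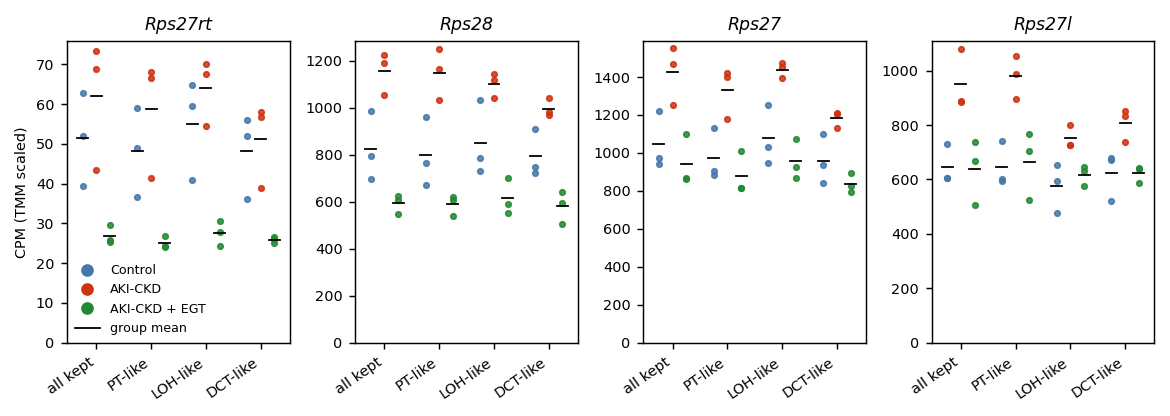
TMM-scaled CPM (y axis, from 0) of Rps27rt, Rps28, Rps27 and Rps27l in all kept, PT-like, LOH-like and DCT-like cells, 1 point per mouse, with black bars for group means. For Rps28 the AKI-CKD + EGT points, such as 623, 546 and 607 in all kept cells, lie below the points of both other groups, which in all kept and PT-like cells holds for Control with TMM scaling only.

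Rps29, a zinc-binding protein of the subunit, was at 1648, 2243 and 1696 CPM among Control, 2501, 2582 and 2712 CPM among AKI-CKD and 1673, 1873 and 1103 CPM among AKI-CKD + EGT mice. Its log2 fold change was 0.48 ± 0.22 for AKI-CKD against Control and -0.75 ± 0.22 for AKI-CKD + EGT against AKI-CKD. Rps19 stood at 813, 1025 and 984 CPM among Control, 1133, 1250 and 1435 CPM among AKI-CKD and 873, 609 and 659 CPM among AKI-CKD + EGT mice, and its value for AKI-CKD + EGT against AKI-CKD was -0.83 ± 0.19. In both genes the AKI-CKD mice lay above all others.

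Rps6, the S6 kinase substrate, was at 321, 424 and 431 CPM among Control, 425, 459 and 528 CPM among AKI-CKD and 401, 336 and 269 CPM among AKI-CKD + EGT mice, with log2 fold changes of 0.26 ± 0.19 (adjusted p = 0.715) and -0.49 ± 0.19 (adjusted p = 0.350) in edgeR. Without 1 mouse in turn, the first of these ran from 0.14 to 0.33. Control and AKI-CKD mice overlapped. Rpsa was at 690.4, 817 and 889 CPM among Control, 989, 893 and 1004 CPM among AKI-CKD and 849.6, 734 and 609 CPM among AKI-CKD + EGT mice, with values of 0.27 ± 0.17 (adjusted p = 0.681) and -0.40 ± 0.17 (adjusted p = 0.382). For Rpsa all AKI-CKD mice lay above the other 6 with TMM scaling, whereas in total-scaled CPM AKI-CKD + EGT mouse 1 at 865 overlapped AKI-CKD mouse 3 at 857. For Rps6 the AKI-CKD and AKI-CKD + EGT mice overlapped in total-scaled CPM.

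Rps2, which lines the mRNA entry, stood at 1313, 1691 and 1652 CPM among Control, 1752, 1758 and 2082 CPM among AKI-CKD and 1793, 1453 and 970.5 CPM among AKI-CKD + EGT mice, a log2 fold change of 0.26 ± 0.23 for AKI-CKD against Control (0.16 to 0.33 without 1 mouse in turn). Rps19bp1 was at 38.8, 56.0 and 56.8 CPM, then 54.3, 58.1 and 57.3 CPM, then 55.2, 40.9 and 36.8 CPM (0.16 ± 0.18 for AKI-CKD against Control, and 0.004 to 0.252 without 1 mouse in turn). In both, 1 AKI-CKD + EGT mouse lay within the AKI-CKD range with TMM scaling. In total-scaled CPM Rps2 was at 1672, 1757 and 1777 among AKI-CKD and 1825, 1560 and 1172 among AKI-CKD + EGT mice. For AKI-CKD + EGT against AKI-CKD the least negative values were -0.18 for Rps23rg1, -0.27 for Rps25 and -0.29 for Rps14. Without 1 mouse in turn these ran from -0.33 to -0.05, from -0.46 to -0.15 and from -0.43 to -0.10. Rps23rg1 was at 3.09, 5.31 and 4.59 CPM, then 5.55, 4.74 and 6.02 CPM, then 4.68, 5.67 and 4.02 CPM. Rps25 was at 660.2, 744 and 639 CPM, then 839, 941 and 972 CPM, then 942, 689 and 656 CPM, and Rps14 at 1595, 1907 and 1404 CPM, then 1980, 2121 and 2359 CPM, then 1898, 2075 and 1314 CPM. The AKI-CKD and AKI-CKD + EGT mice overlapped in each of these 3.

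Because all members lay on the same side in each comparison, the make-up of the member pool was compared by setting each library to its summed member counts. In this fit 0 members passed edgeR in either comparison, with background rates of 0% and 0.00493%. At an unadjusted p of 0.05, 0 members passed in the first comparison (27.7% of all genes) and 4 in the second (45.4% of all genes, since most genes shift against this scale). These were Rps28 at -0.43 ± 0.13 (adjusted p = 0.0531), Rps27rt at -0.66 ± 0.23 (adjusted p = 0.0622), Rps19 at -0.32 ± 0.12 (adjusted p = 0.0761) and Rps25 at 0.24 ± 0.11 (adjusted p = 0.108). Rps28 made up 2.40%, 2.78% and 2.51% of member UMIs among Control, 2.72%, 2.91% and 2.72% among AKI-CKD and 1.88%, 1.83% and 2.48% among AKI-CKD + EGT mice. Rps25, in contrast, made up 2.28%, 2.10% and 2.02%, then 2.17%, 2.30% and 2.16%, then 2.85%, 2.30% and 2.68%.

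Next, the comparison was made within PT-like cells. The share of UMIs from the members was 2.92%, 3.196% and 2.91% among Control, 3.60%, 3.87% and 3.73% among AKI-CKD and 3.25%, 3.04% and 2.84% among AKI-CKD + EGT mice, and the AKI-CKD mice lay above all others. edgeR called 0 members for AKI-CKD against Control (8 of 17998 genes called, 0.0444%; 17 members and 11.2% of genes at an unadjusted p of 0.05) and 0 for AKI-CKD + EGT against AKI-CKD (0 genes called, 0%; 25 members and 15.1% of genes at an unadjusted p of 0.05), with lowest adjusted p of 0.349 and 0.225. DESeq2 called 0 and 14 members, the latter all lower, beside 1.1% and 2.55% of genes. The median log2 fold changes were 0.39 and -0.50. All 36 members were on the same side in each, and 32 and 28 of them did not overlap between groups, beside 11.5% of genes all higher and 10.9% all lower (32 and 24 in total-scaled CPM). In the opposite direction 0 members did so in either comparison, beside 9.21% and 10.1% of genes.

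In PT-like cells Rps27l was at 603, 741 and 596 CPM among Control, 897, 986 and 1055 CPM among AKI-CKD and 768, 703 and 524 CPM among AKI-CKD + EGT mice (0.60 ± 0.18, adjusted p = 0.349, and -0.56 ± 0.18, adjusted p = 0.245, edgeR). Rps27 was at 882, 1130 and 903 CPM, then 1181, 1401 and 1419 CPM, then 815, 1010 and 813 CPM. In both the AKI-CKD mice were the highest. Rps6 was at 301, 402 and 403 CPM, then 412, 440.0 and 489.8 CPM, then 384, 320.1 and 246 CPM in the same order of groups. Rpsa was at 656, 779 and 838 CPM, then 959.9, 879.7 and 939.6 CPM, then 825, 704 and 576 CPM. For these genes too, all AKI-CKD mice lay above the other 6, except that in total-scaled CPM Rpsa overlapped between AKI-CKD and AKI-CKD + EGT mice. For Rps28 in PT-like cells, AKI-CKD + EGT mouse 3 at 738 and Control mouse 1 at 711 overlapped in total-scaled CPM.

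The order of groups was also read within kinds of PT-like cells. These cells formed 10 clusters, and in each of them, as in each of 4 bins of UMIs per cell, all AKI-CKD mice had a higher member share than all Control mice and all AKI-CKD + EGT mice. The mean share in Control mice ranged from 2.20% in a cluster led by Snhg11 and Nhs to 3.78% in a cluster led by Spp2 and Gatm, and the AKI-CKD means of these clusters were 2.80% and 4.23%. In cells with 1000 to under 2000 UMIs the means were 3.14% among Control, 3.78% among AKI-CKD and 2.96% among AKI-CKD + EGT mice, and in the bin of cells with the most UMIs they were 2.96%, 3.72% and 3.06%. The cluster led by Angptl4, Osgin1 and Cxcl10, which include stress response genes, had 3.43%, 4.03% and 3.45%.

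**Figure D3:**
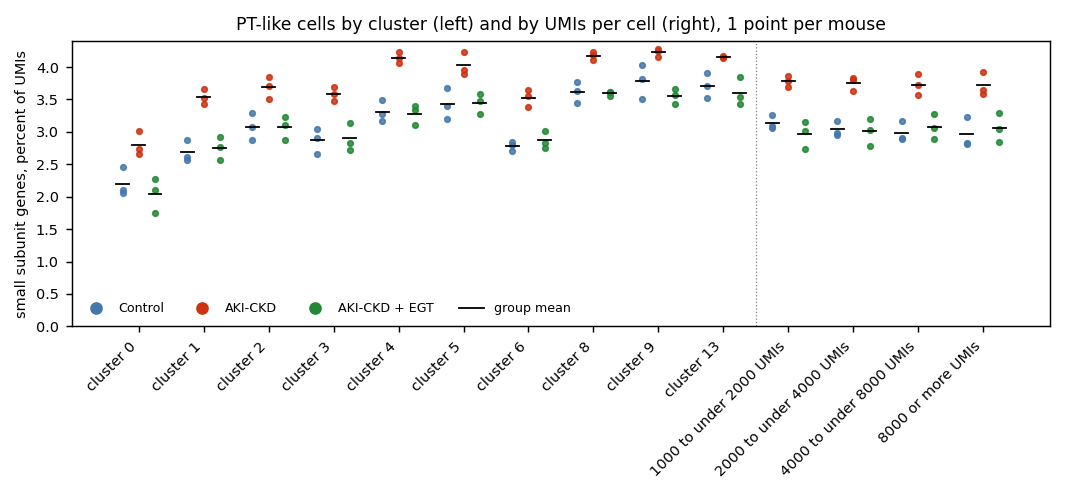
Share of UMIs from the 36 genes (y axis, percent, from 0) in the 10 clusters of PT-like cells and in 4 bins of UMIs per cell, 1 point per mouse, with black bars for group means. In every cluster and bin the 3 AKI-CKD points lie above the other 6, for example 3.70% to 3.86% in the lowest bin against 2.73% to 3.27%.

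In LOH-like cells, 2 members passed edgeR for AKI-CKD + EGT against AKI-CKD, both lower, where 33 of 10439 genes (0.316%) were called, and 24 members had an unadjusted p under 0.05 beside 14.6% of genes. Rps27rt was at 54.5, 70.1 and 67.7 CPM in AKI-CKD and 27.8, 30.6 and 24.4 CPM in AKI-CKD + EGT mice, a log2 fold change of -1.24 ± 0.21 (adjusted p = 0.0348). Rps28 was at 1117, 1141 and 1040 CPM in AKI-CKD and 589, 552 and 701 CPM in AKI-CKD + EGT mice, a log2 fold change of -0.84 ± 0.17 (adjusted p = 0.0389). Control values were 59.5, 41.0 and 64.9 CPM for Rps27rt and 784, 1032 and 729 CPM for Rps28, above all AKI-CKD + EGT mice. After PT transcripts were taken out, Rps27rt was at 65.6, 47.3 and 80.1 CPM among Control, 70.2, 73.2 and 74.2 CPM among AKI-CKD and 33.0, 36.5 and 14.6 CPM among AKI-CKD + EGT mice, and Rps28 at 817, 1145 and 791 CPM, then 1261, 1091 and 1018 CPM, then 587, 559.9 and 615 CPM. In both, the AKI-CKD + EGT mice still lay below the other 6, and Control and AKI-CKD overlapped. With the replicate number as a block both calls were lost (adjusted p = 0.0843 for Rps27rt and 0.0908 for Rps28). A 10% mitochondrial limit ended the call of Rps28 (adjusted p = 0.0632) and not that of Rps27rt. Both calls were lost without AKI-CKD mouse 2 or 3 or AKI-CKD + EGT mouse 2 or 3, and that of Rps28 also without AKI-CKD mouse 1. With 1 mouse left out in turn the count of called members ran from 0 to 9, the 9 being without AKI-CKD + EGT mouse 1, where 2.52% of all genes were called. DESeq2 called 10 members, all lower, beside 2.03% of genes. For AKI-CKD against Control edgeR called 0 members (0.0287% of genes; 13 members and 11.1% of genes at an unadjusted p of 0.05) and DESeq2 0, beside 0.3% of genes.

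Of 35 members tested in LOH-like cells, the medians were 0.27 and -0.39 in the 2 comparisons, beside 0.00 and 0.02 for all genes. Rps23rg1 did not pass the filter on low counts there. In AKI-CKD against Control 34 of the 35 had higher fitted levels, all but Rps19bp1 at -0.11 ± 0.18, and 35 of 35 were lower with EGT. Groups did not overlap in 22 members, all higher, and in 27, all lower, beside 8.7% and 8.67% of genes, while 0 members did so the other way, beside 7.69% and 8.59%. In total-scaled CPM the counts were 22 and 23. Rps27l was at 652, 594 and 478 CPM among Control, 727, 728 and 800.3 CPM among AKI-CKD and 630.4, 646 and 576 CPM among AKI-CKD + EGT mice. Rps27 was at 1032, 1253 and 947 CPM, then 1474, 1451 and 1393 CPM, then 869, 1073 and 928 CPM. All AKI-CKD mice lay above the others in both. After PT transcripts were taken out, this held for Rps27, whereas Rps27l overlapped between Control, at 587, 411 and 419 CPM, and AKI-CKD, at 604, 576 and 609 CPM (519, 537 and 453 CPM among AKI-CKD + EGT mice). Rps6 was at 417, 505 and 451 CPM, then 433, 550.1 and 533 CPM, then 426, 369.5 and 366 CPM, and Rpsa at 827, 883 and 908 CPM, then 1006, 984 and 883 CPM, then 870.4, 757 and 742 CPM. For these 2 genes Control and AKI-CKD mice overlapped. The share of the members was 3.53 ± 0.214% among Control, 4.30 ± 0.202% among AKI-CKD and 3.32 ± 0.322% among AKI-CKD + EGT mice as counted, and 4.27 ± 0.243%, 4.82 ± 0.154% and 3.72 ± 0.376% after PT transcripts were taken out (SD, n = 3), with the AKI-CKD mice above all others in each.

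In DCT-like cells edgeR called 0 members in either comparison (1 of 11877 genes, 0.00842%, and 0 genes, 0%), with 6 and 23 members at an unadjusted p of 0.05 beside 10% and 13.3% of genes. DESeq2 called 0 and 12 members, the 12 all lower, beside 0.136% of genes and 9.52% of the 851 genes to which it gave an adjusted p. The medians were 0.22 and -0.34, with 35 of 36 members higher and 35 of 36 lower, the exception in each being Rps23rg1 (-0.39 ± 0.57 and 1.02 ± 0.52). Groups did not overlap in 23 members, all higher, and in 25, all lower, beside 8.85% and 8.2% of genes, while 0 members did so the other way, beside 7.92% and 9.4%. In total-scaled CPM the counts were 20 and 16, and 1 member, Rps23rg1, then lay all higher in AKI-CKD + EGT mice. Rps27l was at 670.2, 679.9 and 520.2 CPM among Control, 738, 851 and 835 CPM among AKI-CKD and 637, 642 and 588 CPM among AKI-CKD + EGT mice, and Rps27 at 935, 1098 and 841 CPM, then 1129, 1207 and 1212 CPM, then 793, 894 and 828 CPM. The AKI-CKD mice were the highest in both. After PT transcripts were taken out, both overlapped between Control and AKI-CKD, with Rps27l at 656, 650.0 and 498 CPM, then 649, 750.2 and 659.9 CPM, and Rps27 at 827, 1121 and 858 CPM, then 1103, 1065 and 1068 CPM. The AKI-CKD + EGT mice, at 579.7, 584 and 534 CPM for Rps27l and 822, 765 and 564 CPM for Rps27, still lay below AKI-CKD. Rps6 was at 356, 409.9 and 426 CPM, then 398, 484 and 440.3 CPM, then 408, 324 and 313 CPM, and Rpsa at 741, 764 and 861 CPM, then 893, 883 and 826 CPM, then 829, 691 and 687 CPM, and the groups overlapped in both comparisons. The share of the members was 3.14 ± 0.116% among Control, 3.61 ± 0.0728% among AKI-CKD and 2.98 ± 0.236% among AKI-CKD + EGT mice as counted, and 3.31 ± 0.037%, 3.52 ± 0.0371% and 2.89 ± 0.309% after PT transcripts were taken out (SD, n = 3). The AKI-CKD minus Control difference was 0.463 percentage points as counted and 0.201 after taking them out, and the groups did not overlap in either.

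Whether the change differed between tubule segments was tested by an interaction of cell type and group. For LOH-like against PT-like cells 0 members passed in either comparison (0.0288% and 1.11% of genes), and 0 members had an unadjusted p under 0.05, beside 8.49% and 11.7% of genes. The median differences of log2 fold changes (LOH-like minus PT-like) were -0.11 and 0.03, beside -0.01 and 0.01 for all genes. They lay below 0 in 33 of 36 members for AKI-CKD against Control and above 0 in 24 for AKI-CKD + EGT against AKI-CKD. For DCT-like against PT-like cells 0 members passed as well (0.00577% and 0% of genes, and 0 members unadjusted, beside 6.81% and 10.9%). The median differences were -0.18 and 0.15, beside -0.05 and 0.08 for all genes. They lay below 0 in 35 of 36 members in the first comparison and above 0 in 35 of 36 in the second. LOH-like and DCT-like cells also held PT transcripts at 48.3 ± 7.68% and 41.6 ± 9.29% of the PT-like level in AKI-CKD mice and at 58.8 ± 6.68% and 55.9 ± 9.73% in Control mice (SD, n = 3), and the part of this in the comparison was not tested.

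Across cell types, the share of UMIs from the members was lowest in tubule and podocyte-like cells and highest in lymphocytes. Over the 9 mice it averaged 2.98% in CD-PC-like, 3.202% in podocyte-like, 3.24% in DCT-like and 3.26% in PT-like cells, whose spreads between mice overlapped. It was 3.60% in CD-IC-like (intercalated), 3.72% in LOH-like, 4.01% in cycling, 4.33% in myofibroblast- or fibroblast-like and 4.94% in endothelial-like cells. The myofibroblast- or fibroblast-like class was a cluster led by Acta2, Ren1, Myl9, Tagln, Rgs5 and Myh11. All 12 of its markers were raised, but no collagen gene was among its leading genes, so its values are not those of fibroblasts alone. Macrophage-like cells had 6.15%, B-like cells 7.86% and T-like cells 9.15%. After PT transcripts were taken out, the averages were 10.8% in macrophage-like, 15.7% in B-like and 15.8% in T-like cells, 3.24% in DCT-like, 4.27% in LOH-like, 2.80% in CD-PC-like, 3.75% in CD-IC-like and 3.203% in podocyte-like cells, and 5.32% in cycling, 5.14% in myofibroblast- or fibroblast-like and 6.598% in endothelial-like cells. These are descriptions with no test.

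AKI-CKD had the highest mean share in each of these cell types, while the AKI-CKD + EGT mean lay below the Control mean in 4 of the 12. The mean share of AKI-CKD mice exceeded that of Control mice and that of AKI-CKD + EGT mice in all 12 types, and the groups did not overlap in 11 and 9 types. In T-like cells it was 6.61%, 9.05% and 8.60% among Control, 10.3%, 11.7% and 10.2% among AKI-CKD and 10.1%, 8.67% and 7.16% among AKI-CKD + EGT mice as counted. With PT transcripts taken out it was 13.1%, 17.3% and 15.02%, then 18.6%, 17.1% and 19.1%, then 16.4%, 14.5% and 11.0%, and Control and AKI-CKD overlapped. After PT transcripts were taken out, the AKI-CKD mean still exceeded both other means in all 11 other types, with no overlap in 7 and 8 of them. Endothelial-like cells then had 6.26 ± 0.46% among Control, 7.80 ± 0.37% among AKI-CKD and 5.73 ± 0.055% among AKI-CKD + EGT mice, and macrophage-like cells 10.7 ± 0.796%, 11.9 ± 0.477% and 9.71 ± 0.787% (SD, n = 3). Podocyte-like cells numbered as few as 15 in a mouse, and their groups overlapped once PT transcripts were taken out.

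**Figure D4:**
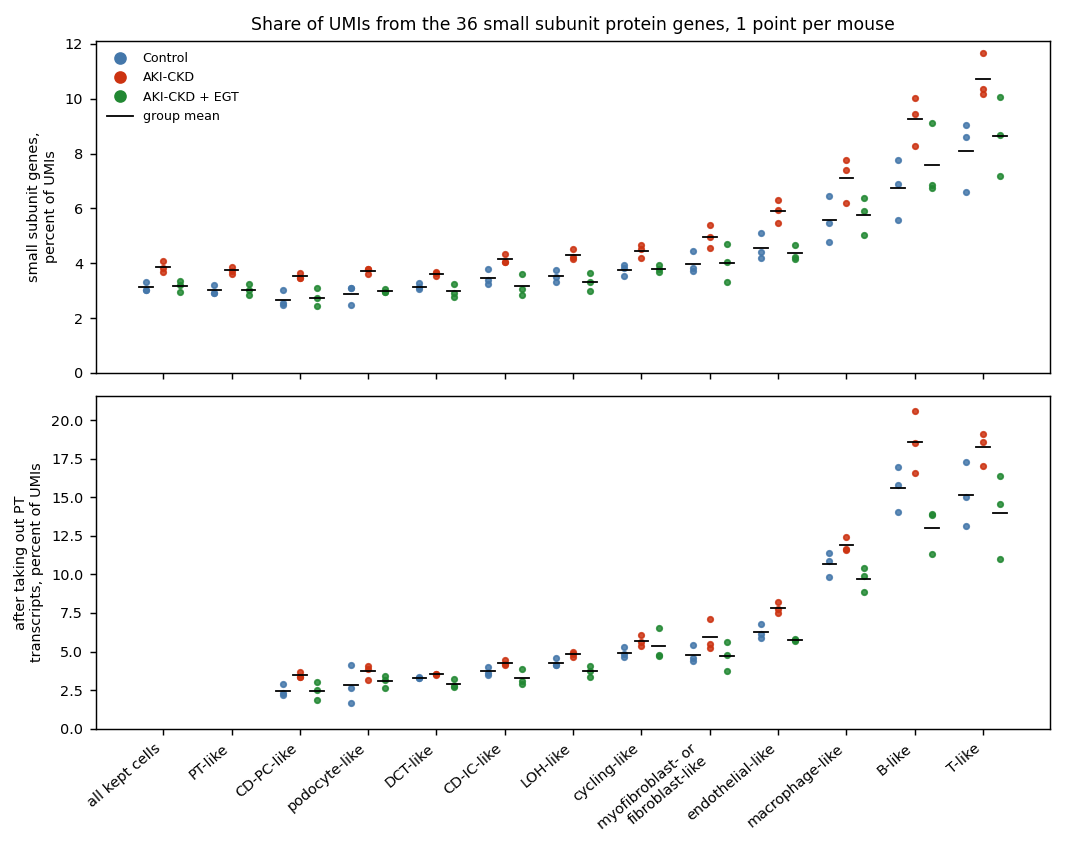
Share of UMIs from the 36 genes (y axis, percent, from 0) in all kept cells and in each cell type as counted (upper panel) and after taking out PT transcripts (lower panel), 1 point per mouse, with black bars for group means. The AKI-CKD mean is the highest of the 3 groups in each type of both panels, and T-like cells average 9.15% in the upper and 15.8% in the lower panel.

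Members did not contribute equally to the cell types. In T-like cells the make-up shifted away from Rps27l, which was 2.31% of member UMIs in PT-like and 0.538% in T-like cells. It shifted towards Rps27, whose share was 0.73 higher than in PT-like cells on the log2 scale. Among all types the share of Rps27 was highest in B-like cells at 5.81% and lowest in DCT-like cells at 3.05%. Between PT-like and T-like cells the levels of Rps27l and Rps27 differed in opposite directions as well. Rps27l averaged 754 CPM in PT-like and 492 CPM in T-like cells, whereas Rps27 averaged 1051 CPM in PT-like and 4892 CPM in T-like cells. With PT transcripts taken out, Rps27l averaged 205 CPM and Rps27 9236 CPM in T-like cells. Rps2 made up 4.91% in PT-like and 2.42% in T-like cells, and Rps24 4.45% in T-like and 2.57% in CD-IC-like cells. Rps4l was highest in podocyte-like cells, at 61.4 CPM against 24.8 CPM in PT-like cells.

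**Figure D5:**
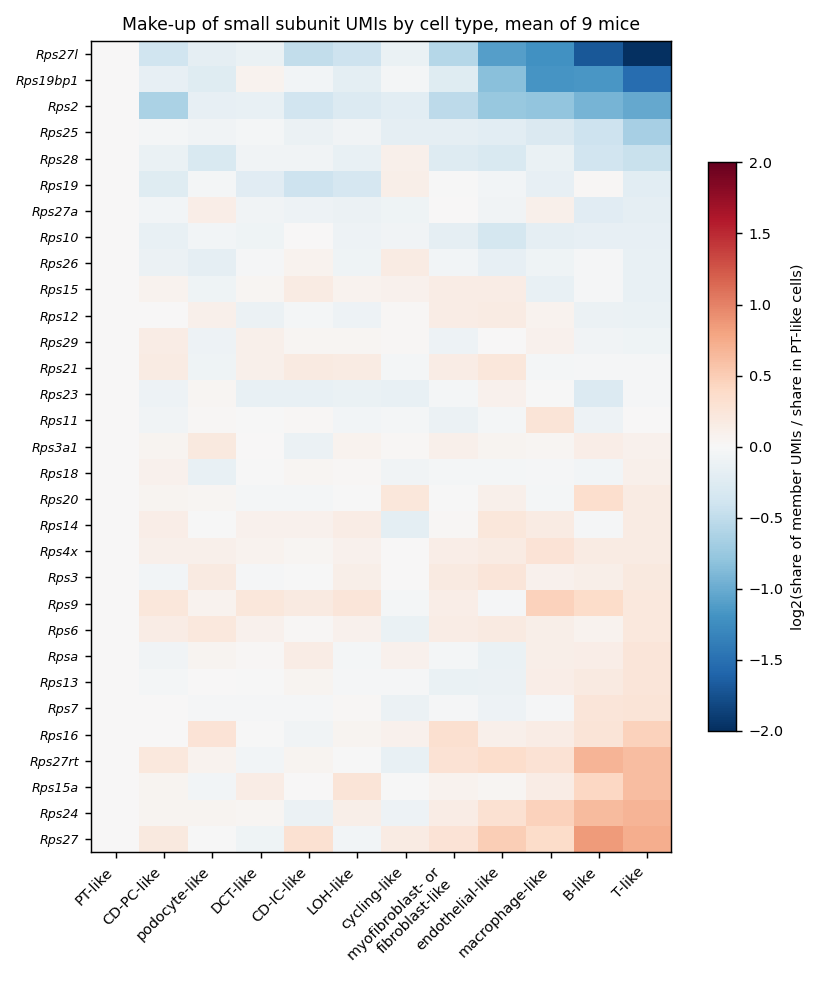
Colour shows, for 31 genes (Rps23rg1 and Rps4l left out as low), log2 of each gene's share of member UMIs in a cell type over its share in PT-like cells, as means of 9 mice, with rows ordered by the value in T-like cells. Rps27l is at -2.10 and Rps27 at 0.73 in T-like cells, and most genes lie near 0 in the other tubule types.

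The large subunit genes followed the same order. The 52 genes of that set held 4.06%, 4.50% and 4.20% of UMIs among Control, 5.09%, 5.76% and 5.23% among AKI-CKD and 4.89%, 4.50% and 4.21% among AKI-CKD + EGT mice. edgeR called 0 of 52 in either comparison, beside 0.0199% and 0.00496% of genes, and the medians were 0.35 and -0.44. At an unadjusted p of 0.05, 19 and 30 of the 52 passed, beside 8.02% and 12.7% of genes. The ratio of small to large subunit UMIs was 0.735 ± 0.0142 among Control, 0.724 ± 0.012 among AKI-CKD and 0.701 ± 0.0121 among AKI-CKD + EGT mice (SD, n = 3). Control and AKI-CKD mice overlapped in this ratio, as did AKI-CKD and AKI-CKD + EGT mice in all kept cells, while in LOH-like and DCT-like cells all AKI-CKD + EGT mice lay below all AKI-CKD mice.

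Other genes of ribosome production and TOR signalling had medians nearer 0. In all kept cells edgeR called 0 of 51 small subunit assembly factors and 0 of 33 initiation factors in either comparison. It also called 0 of 23 S6 kinases and TOR regulators and 0 of 23 other TOP transcripts, beside 0.0199% and 0.00496% of genes. At an unadjusted p of 0.05, 4, 3, 1 and 3 genes of these lists passed for AKI-CKD against Control, beside 8.02% of genes. For AKI-CKD + EGT against AKI-CKD 5, 4, 6 and 3 passed, beside 12.7%. The list medians were 0.02, 0.12, -0.14 and 0.14 for AKI-CKD against Control and -0.12, -0.21, 0.03 and -0.25 for AKI-CKD + EGT against AKI-CKD. In the latter, fitted levels were lower for 45 of 51 assembly factors, 31 of 33 initiation factors and 22 of 23 other TOP transcripts, but for 9 of 23 S6 kinases and TOR regulators. In LOH-like cells they were lower for 25 of 48, 23 of 33, 14 of 22 and 10 of 19 of these lists. In DCT-like cells the counts were 22 of 51, 23 of 33, 13 of 22 and 11 of 20. Among the S6 kinases and TOR regulators, Tsc2, a TOR inhibitor, was at -0.46 ± 0.12 for AKI-CKD + EGT against AKI-CKD in all kept cells (adjusted p = 0.318, edgeR). The genes of this list ran from -0.61 to 0.84 there, with 14 of 23 higher.

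Rps27l was also set beside 25 other p53 target genes. Of these, 3 passed edgeR, all higher, for AKI-CKD against Control in all kept cells, beside 0.0199% of all genes. These were Ephx1, an epoxide hydrolase, at 1.75 ± 0.17 (adjusted p = 0.0173), Phlda3, an inhibitor of Akt, at 2.81 ± 0.30 (adjusted p = 0.0186) and Eda2r at 3.30 ± 0.41 (adjusted p = 0.0359). The list had a median of 0.62, from 0.20 to 3.30, with 25 of 25 higher, and Rps27l was at 0.56. Relative to the summed members, Rps27l was at 0.18 ± 0.10 (adjusted p = 0.236, edgeR). Whether p53 had a part in the Rps27l values was not tested. The calls of Ephx1, Phlda3 and Eda2r were lost with the replicate block (adjusted p = 0.155, 0.155 and 0.161). They were also lost when only the 6 mice compared were fitted (adjusted p = 0.098, 0.098 and 0.206, edgeR). The 3 calls held with a 10% or no mitochondrial limit and without the 5% of cells with the most UMIs. DESeq2 called 8 of 25 in all kept cells, all higher, beside 0.559% of genes. Without Control mouse 2 or 3 or AKI-CKD mouse 2 or 3, 0 of 25 passed edgeR. In PT-like cells 5 of 25 passed, beside 0.0444% of genes, among them Cdkn1a, the cyclin-dependent kinase inhibitor, at 3.51 ± 0.46 (adjusted p = 0.0272). With the block 0 passed there too (adjusted p = 0.120 for Cdkn1a), and without 1 mouse in turn 0 to 3 passed, the 0 being without Control mouse 2. Clusters without Harmony gave 3, and a fit of only the 6 mice compared gave 4. The count stayed at 5 with a 10% mitochondrial limit and without the 5% of cells with the most UMIs. In PT-like cells DESeq2 called 11 of 25, all higher, beside 1.1% of genes. In all kept cells edgeR called 0 of 25 for AKI-CKD + EGT against AKI-CKD, beside 0.00496% of genes, with a median of -0.54. At an unadjusted p of 0.05, 12 passed beside 12.7% of genes, and DESeq2 called 3, all lower, beside 1.45% of genes. For the same comparison in PT-like cells edgeR called 0 of 25 (0% of genes). DESeq2 called 7 there, all lower, beside 2.55% of genes. In LOH-like cells 1 of 20 tested passed edgeR in each comparison, beside 0.0287% and 0.316% of genes. These were Phlda3 at 2.83 for AKI-CKD against Control (adjusted p = 0.0218) and Ephx1 at -1.22 with EGT (adjusted p = 0.0348). Both calls were lost with the replicate block (adjusted p = 0.0633 and 0.0843). That of Phlda3 was also lost without Control mouse 1, 2 or 3 or AKI-CKD mouse 2 or 3. That of Ephx1 was lost without AKI-CKD mouse 1, 2 or 3 or AKI-CKD + EGT mouse 2 or 3.

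Genes that respond to dissociation and RNAs kept in the nucleus were read in the same libraries. Of 20 dissociation genes and 5 nuclear RNAs, 0 passed edgeR in all kept cells in either comparison, beside 0.0199% and 0.00496% of genes. At an unadjusted p of 0.05, 0 and 1 of them passed for AKI-CKD against Control, beside 8.02% of genes. For AKI-CKD + EGT against AKI-CKD 4 and 2 passed, beside 12.7%. The medians were 0.22 and -0.62 for AKI-CKD against Control and -0.08 and 0.55 for AKI-CKD + EGT against AKI-CKD, and those of 13 mitochondrially encoded genes were -0.57 and 0.75. In LOH-like and DCT-like cells the AKI-CKD + EGT medians against AKI-CKD were -0.35 and -0.36 for the dissociation genes, of which 17 and 19 of 20 were lower, beside member medians of -0.39 and -0.34. There the 4 nuclear RNAs tested were at medians of 1.02 and 1.11, and the mitochondrially encoded genes at 1.07 and 1.05. Of the nuclear RNAs, 4 of 4 had an unadjusted p under 0.05 in each class, beside 14.6% and 13.3% of all genes. In LOH-like cells the heat shock gene Hspa1a was lower in AKI-CKD + EGT mice (-1.39 ± 0.29, adjusted p = 0.0482) and mt-Nd6 higher (1.76 ± 0.33, adjusted p = 0.0348), beside the calls of Rps28 and Rps27rt. With the replicate block these 2 calls were lost as well (adjusted p = 0.0843 for both), and a 10% mitochondrial limit ended that of Hspa1a (adjusted p = 0.0688). Both were also lost without AKI-CKD mouse 1, 2 or 3 or AKI-CKD + EGT mouse 2 or 3, and that of Hspa1a without the 5% of cells with the most UMIs. Their part in the member values was not tested.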

How the data were processed

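Kidney cells of 9 mice were captured in droplets on the DNBelab C4 platform with poly(dT) primers. The authors deposited raw UMI counts per gene and cell, written by PISA 1.0 per the file headers, and GRCm39 is named in the submitters' processing notes. Cells with at least 1000 UMIs, 500 genes and at most 15% mitochondrially encoded UMIs were kept. Cell names are running numbers, so barcodes shared between libraries could not be counted. Doublets were not called. An alternative left out the 5% of cells with the most UMIs in each library. The 2000 most variable genes, without ribosomal protein and mitochondrial genes, gave 30 principal components, corrected for library by an own implementation of Harmony. Leiden clustering at resolution 1.1 gave 24 clusters. A cluster was named from at least 3 markers raised 2-fold, and 2 clusters of 5212 cells, led by haemoglobin or long neuronal genes, stayed unnamed by a rule set after the clusters were seen.

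For each mouse, the counts of a cell type were added up and then compared by edgeR 4.0.16 (TMM, filterByExpr, quasi-likelihood test over all 3 groups, Benjamini-Hochberg adjustment over all genes tested) in R 4.3.3. DESeq2 1.42.0 was an alternative. Scripts were tested on simulated data. Replicate numbers came from the sample titles, and the labels state no shared litter or day. Mice are separate animals, so p-values measure the spread between mice. UMIs count molecules, so levels were not divided by length. PT transcripts were taken out of a class by the median ratio of 19 PT markers to PT-like cells of the same mouse. This step and the levels in CPM without TMM scaling were chosen after seeing the data. No 2 libraries agreed within sampling noise.

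Named were Rps27l, Rps27, Rps6 and Rpsa in the 4 populations, members with an adjusted p under 0.05, the 3 members with the largest and the 3 with the smallest fold change of each comparison in all kept cells, the 3 members nearest the UMI limit and up to 4 genes of each other list. The members and lists were chosen with earlier results of these data known. Start windows and gene types came from RefSeq GRCm38.p6 and transcripts from GENCODE M21. No GRCm39 coordinates are given. Some genes are counted in the totals and are not reported here by name.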

Additional observations from a re-analysis of the deposited data

How the results depend on the processing

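The median log2 fold change of the members kept its direction in all 80 values under alternative settings and all 48 without 1 mouse, and named members changed sign in 0 of 396 and 0 of 264 values. Their calls changed in 12 and 9 of these values. Of the 12, 9 gained a call, and the others, like all 9 without 1 mouse, lost the calls of Rps27rt or Rps28 in LOH-like cells. Without 1 mouse in turn, the median ran from 0.31 to 0.43 in all kept cells, 0.34 to 0.47 in PT-like, 0.21 to 0.33 in LOH-like and 0.21 to 0.26 in DCT-like cells for AKI-CKD against Control, and from -0.63 to -0.36, -0.62 to -0.36, -0.46 to -0.33 and -0.41 to -0.30 for AKI-CKD + EGT against AKI-CKD.

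Counts of called members changed only for AKI-CKD + EGT against AKI-CKD. DESeq2 called 11 members in all kept cells, 14 in PT-like, 10 in LOH-like and 12 in DCT-like cells (1.45%, 2.55%, 2.03% and 9.52% of genes), against 0, 0, 2 and 0 in edgeR. Without a filter on low counts edgeR called 2 in PT-like, 6 in LOH-like and 3 in DCT-like cells, beside 0.779%, 1.83% and 2.1% of genes. In LOH-like cells a 10% mitochondrial limit gave 1 (0.136% of genes), clusters without Harmony gave 6 (3.91%) and the replicate block gave 0 (0.00958%). Without 1 mouse in turn the counts ran from 0 to 1 in PT-like, 0 to 9 in LOH-like and 0 to 4 in DCT-like cells, and the 1, 9 and 4 arose without AKI-CKD + EGT mouse 1, where 0.41%, 2.52% and 2.29% of genes were called. Across settings the adjusted p in LOH-like cells ran from 7.08e-06 to 0.222 for Rps27rt and from 0.000407 to 0.175 for Rps28. The cause was not tested.

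Same-numbered mice of different groups had deviations that correlated between -0.48 and 0.45 in all kept cells, and differently numbered mice between -0.45 and 0.47. With 3 mice a group, these ranges can neither show nor exclude that the numbers pair the mice. Among the members the replicate block changed no call other than the 2 in LOH-like cells. Over all genes it cut the calls for AKI-CKD + EGT against AKI-CKD from 33 to 1 in LOH-like and from 1 to 0 in all kept cells, and it ended each call of a named p53 target, of Hspa1a and of mt-Nd6. Member shares moved beyond the spread between mice in podocyte-like cells when mitochondrially encoded and Malat1 counts left the total (difference of -0.644 percentage points for AKI-CKD + EGT against AKI-CKD). With PT transcripts taken out, that difference was -0.633 in podocyte-like, -5.55 in B-like, -4.26 in T-like, -0.327 in cycling, -2.07 in endothelial-like and -2.18 in macrophage-like cells. As counted and without 1 mouse in turn, it ran from -0.81 to -0.72 in podocyte-like, -2.46 to -1.28 in B-like and -2.81 to -1.36 in T-like cells. It ran from -0.79 to -0.56 in cycling, -1.77 to -1.34 in endothelial-like and -1.82 to -0.98 in macrophage-like cells. The AKI-CKD against Control difference with PT transcripts taken out was 0.201 in DCT-like and 0.548 in LOH-like cells (0.463 and 0.769 as counted).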
